A study of Oryza sativa Indica Group with 23 samples.

Results

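The 2 rice metallothionein genes MT2C (LOC4337596) and MT-2 (LOC4325218) were followed in roots of 4 rice genotypes under salt and without it. The members were the probe sets whose single gene in the array annotation was MT2C or MT-2, which gave 5 probe sets for MT2C and 4 for MT-2. These are 2 of the 17905 genes that the array measures singly, and 9 of 57194 rice probe sets on the array. The genes were picked with their levels in the 8 groups of genotype and treatment already known. These levels and the differences between them are therefore given as a description with no p-value. Counts of members that passed a limma test on these groups are also given, and nothing is read from them. The names of this family are easily mixed up: the RefSeq gene table lists OsMT2b as a synonym of MT2C, and OsMT2c as a synonym of the separate gene MT2B. MT-2 is also listed as MT2A, OsMT2a and rgMT-2.

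Metallothioneins are small proteins rich in cysteine, whose thiol groups bind copper and zinc. In plants they are known for buffering these metals inside the cell and for taking up reactive oxygen species, and their transcripts are abundant in many tissues, roots among them. Salt in the root zone is a known source of reactive oxygen in root cells.

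Root RNA was measured on 23 Affymetrix arrays, 12 from plants under salt and 11 from control plants. As background, IR29 is known as salt-sensitive and Pokkali as salt-tolerant, FL478 is an inbred tolerant line bred from both, and IR63731 counts as tolerant too. FL478, IR63731 and Pokkali had 3 salt and 3 control arrays each, while IR29 had 3 salt and 2 control arrays, with no control array of replicate number 3. All plants grew in sand with nutrient solution and all roots were taken on day 30. Salt plants received sodium and calcium chloride from day 22, in 2 steps over 3 days, up to a salinity of 7.4 dS per m, and control plants did not. The labels call the arrays of a group biological replicates without saying how many plants went into each, and p-values measure the spread between these arrays only. RNA came from whole roots, in which fewer cells of a type and less RNA per cell cannot be told apart.

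The values were log2 RMA intensities, which can be compared between arrays for one probe set but not between probe sets. Of 7 root marker genes measured, 5 lay above the array median on every array, the exceptions being HKT1;5 and SCR1. Of the markers of other tissues, 2 of 4 photosynthesis genes and 1 of 3 seed storage genes also lay above it on every array. Genotype was checked on probe sets specific to 1 genotype by a margin of 2 log2 units or more. On a scale where 1 is the level of that genotype and 0 that of the others, 20 arrays lay at 0.844 to 1.04 for their own label and at -0.0429 to 0.142 for the others. A further 3 arrays fell in between. The array labelled FL478 salt 2 was at 0.403 for FL478 and 0.620 for IR63731, FL478 control 3 was at 0.755 and 0.234, and IR29 control 1 was at 0.500 for IR29 and 0.444 for IR63731. Where a difference given for the brightest probe set of MT2C or MT-2 changed sign or moved by over 1.5 times without them, that value is given too.

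MT2C was higher under salt in the mean of the 4 genotypes, by 0.39 on the log2 scale (SE 0.11, 95% interval 0.15 to 0.63), which is 1.31-fold, and by 0.33 without the 3 arrays between genotypes. The difference was largest in IR29 and smallest in Pokkali with all arrays. Without IR29 control 1 the IR29 difference, at 0.31, was below those of FL478 and IR63731. On the MT2C probe set with the highest mean, Os.12791.1.S1_a_at, 11 of the 12 salt arrays exceeded the mean of the control arrays of the same genotype. All values of MT2C quoted as its level below are from this probe set unless another is named.

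In FL478 the level of MT2C was 12.27, 12.23 and 12.30 on the salt arrays, against 11.90, 11.79 and 11.80 on the control arrays. All 3 salt arrays lay above all 3 control arrays, and both groups were tight. The difference was 0.43 (SE 0.22, interval -0.03 to 0.90) in the fit, whose single estimate of the spread comes from all 23 arrays. It was 0.44 without FL478 salt 2, FL478 control 3 and IR29 control 1.

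In IR29 the level of MT2C was 12.14, 12.73 and 12.04 on the salt arrays, against 11.51 and 11.99 on the control arrays. The groups did not overlap, though the higher control array came within a small distance of the lowest salt array. The difference was 0.55 (SE 0.25, interval 0.03 to 1.07). The lower control value belongs to IR29 control 1, which lay between IR29 and IR63731 on the marker probe sets, and without it the difference was 0.31. Without IR29 salt 2, the highest salt array, it was 0.34.

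In IR63731 the level of MT2C was 11.80, 12.71 and 11.73 on the salt arrays, against 11.69, 11.73 and 11.49 on the control arrays. One salt array stood far above the rest, and the other 2 were close to the controls, so the groups just overlapped. The difference was 0.44 (SE 0.22, interval -0.02 to 0.91), and it was 0.13 without that array, IR63731 salt 2.

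In Pokkali the level of MT2C was 11.62, 12.23 and 12.07 on the salt arrays, against 11.88, 11.95 and 11.69 on the control arrays. The salt arrays lay on both sides of the controls. The difference was 0.13 (SE 0.22, interval -0.33 to 0.60), and without Pokkali salt 2 it was 0.00.

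**Figure D1:**
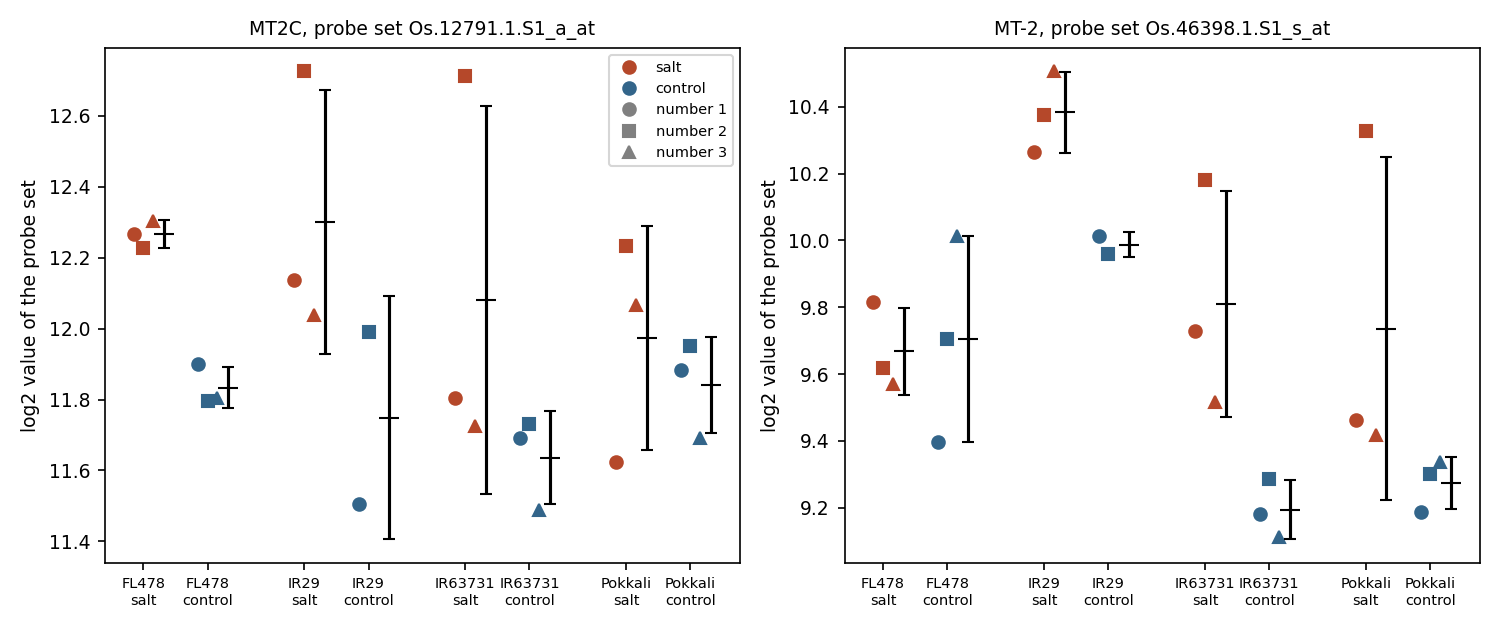
Level of MT2C (left, probe set Os.12791.1.S1_a_at) and of MT-2 (right, probe set Os.46398.1.S1_s_at) on each of the 23 arrays, on the log2 scale, salt left of control in each genotype. Symbols give the replicate number, and the black marks give the group mean with 1 SD. For MT2C the number 2 salt arrays of IR29 and IR63731 stand above the other arrays, and for MT-2 the IR29 arrays lie above most others in each treatment.

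Between genotypes the levels of MT2C lay close together. Under salt the group means ran from 12.30 ± 0.37 in IR29 through 12.27 ± 0.04 in FL478 and 12.08 ± 0.55 in IR63731 to 11.97 ± 0.32 in Pokkali (SD, n = 3 each). In control roots they ran from 11.84 ± 0.14 in Pokkali through 11.83 ± 0.06 in FL478 and 11.75 ± 0.34 in IR29 (n = 2) to 11.64 ± 0.13 in IR63731 (SD, n = 3 where not stated). No 2 neighbours in either order differed beyond the spread of their arrays. The place of IR29 among the controls rests on IR29 control 1: its other control array, at 11.99, lay above all control arrays of the other genotypes. Without the 3 arrays between genotypes IR29 minus Pokkali in control roots was 0.15, against -0.09 with them, and FL478 minus IR29 was -0.14, against 0.09. The widest gap between salt groups, IR29 minus Pokkali, was 0.33 (SE 0.22, interval -0.14 to 0.79). In control roots the 3 FL478 arrays, at 11.79 to 11.90, lay above the 3 IR63731 arrays, at 11.49 to 11.73, with a difference of 0.20 (SE 0.22). The largest gap between salt effects, IR29 minus Pokkali, was 0.42 with an interval of -0.28 to 1.12, so these arrays fix neither its size nor its sign. Without IR29 control 1 it was 0.18, smaller than the 0.31 of IR63731 minus Pokkali.

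The 5 probe sets of MT2C gave similar differences in each genotype. In the mean of 4 genotypes Os.12791.2.S1_a_at was higher under salt by 0.44, Os.12791.4.S1_x_at by 0.40, Os.12791.2.S1_x_at by 0.36 and Os.14153.3.S1_x_at by 0.35. In FL478 and in IR29 all 5 had every salt array above every control array, as 8.75% and 10.5% of all probe sets did. In IR63731 this held for 2 of the 5 and for 6.59% of all probe sets. Those 2 were Os.12791.4.S1_x_at and Os.14153.3.S1_x_at, with differences of 0.51 and 0.49. In Pokkali it held for none of the 5 and for 7.78% of all probe sets, and Os.14153.3.S1_x_at had a difference of -0.02. Nothing is read from these counts, because the genes were picked on the same groups.

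The MT2C probe sets are not independent measurements. Their ID stem is shared by 4 of them, and the suffix _x_at marks probe sets in which some probes may also match other transcripts. Their levels correlated with each other at a Pearson r of 0.845 to 0.987 over the 23 arrays, which share 8 groups and 1 normalization. Os.14153.3.S1_x_at carries another stem, whose other probe sets, Os.14153.1.S1_at and Os.14153.2.S1_x_at, are annotated to LOC4346335. Those stayed dim, at 2.79 to 3.81 and 3.99 to 5.46, and correlated with Os.14153.3.S1_x_at at r = -0.16 and -0.19, while Os.14153.3.S1_x_at and Os.12791.4.S1_x_at correlated at 0.978.

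**Figure D2:**
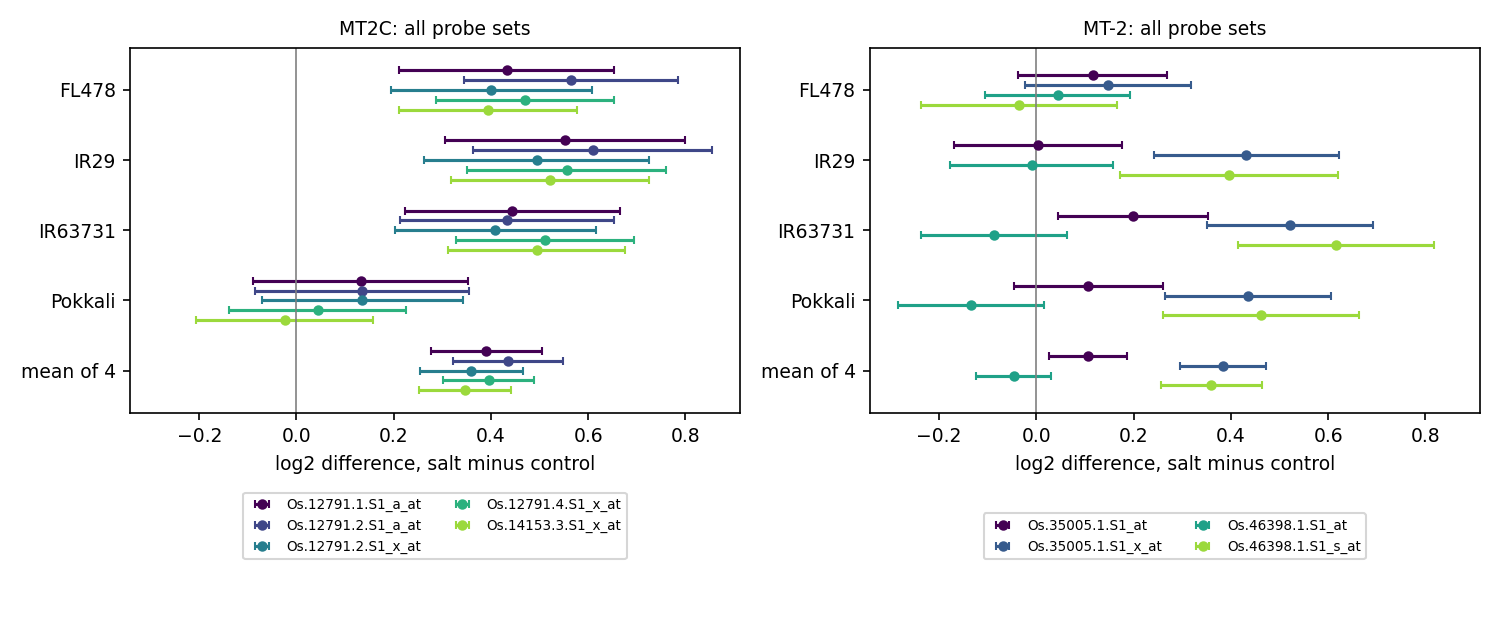
Log2 difference, salt minus control, of each probe set of MT2C (left) and MT-2 (right) in each genotype and in the mean of 4, with 1 SE from the fit over all arrays. The 5 MT2C probe sets move together and lie near 0 in Pokkali, while only 2 of the 4 MT-2 probe sets lie away from 0, in IR29, IR63731 and Pokkali.

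MT-2 was also higher under salt in the mean of the 4 genotypes, by 0.36 (SE 0.10, interval 0.14 to 0.58), which is 1.28-fold, and by 0.41 without the 3 arrays between genotypes. Its genotypes came in another order than those of MT2C: IR63731 had the largest difference and the one in FL478 was near 0. The level of MT-2 is read from its brightest probe set, Os.46398.1.S1_s_at, on which 10 of 12 salt arrays exceeded the mean of the matching controls. The suffix _s_at marks a probe set whose probes match several transcripts, so part of this signal may come from other genes. Os.35005.1.S1_at and Os.46398.1.S1_at, the MT-2 probe sets with neither this suffix nor _x_at, were below the array median on 23 of 23 arrays. Their salt differences in the mean of the 4 genotypes were 0.11 and -0.05.

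In IR63731 the level of MT-2 was 9.73, 10.18 and 9.52 on the salt arrays, against 9.18, 9.29 and 9.11 on the control arrays. The groups were clearly apart, with all salt arrays above all controls. The difference was 0.62 (SE 0.20, interval 0.19 to 1.04), which is 1.53-fold, and 0.43 without IR63731 salt 2.

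In Pokkali the level of MT-2 was 9.46, 10.33 and 9.42 on the salt arrays, against 9.19, 9.30 and 9.34 on the control arrays. The groups did not overlap, but 2 salt arrays lay just above the controls and 1 far above. The difference was 0.46 (SE 0.20, interval 0.04 to 0.88), and without Pokkali salt 2 it was 0.17.

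In IR29 the level of MT-2 was 10.27, 10.38 and 10.51 on the salt arrays, against 10.01 and 9.96 on the control arrays. These groups were tight and did not overlap. The difference was 0.40 (SE 0.23, interval -0.08 to 0.87), and it was 0.42 without IR29 control 1.

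In FL478 the level of MT-2 was 9.82, 9.62 and 9.57 on the salt arrays, against 9.40, 9.70 and 10.01 on the control arrays. The salt values fell inside the range of the controls. The difference was -0.04 (SE 0.20, interval -0.46 to 0.39). The highest control value belongs to FL478 control 3, one of the arrays between genotypes, and the difference was 0.12 without it and 0.14 without all 3 such arrays. The salt effect in FL478 minus that in IR63731 was -0.65 (interval -1.25 to -0.06) with all arrays and -0.47 without those 3.

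IR29 had the highest level of MT-2 in both treatments. Under salt the group means were 10.38 ± 0.12 in IR29, 9.81 ± 0.34 in IR63731, 9.74 ± 0.51 in Pokkali and 9.67 ± 0.13 in FL478 (SD, n = 3 each). The last 3 did not differ from each other beyond their spread. In salt roots FL478 minus IR29 was -0.71 (interval -1.14 to -0.29) and IR29 minus IR63731 was 0.57 (interval 0.15 to 1.00), with no overlap in either pair. IR29 minus Pokkali was 0.65 (interval 0.23 to 1.07), but Pokkali salt 2 reached into the IR29 range.

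In control roots the group means of MT-2 were 9.99 ± 0.04 in IR29 (SD, n = 2), 9.70 ± 0.31 in FL478, 9.27 ± 0.08 in Pokkali and 9.19 ± 0.09 in IR63731 (SD, n = 3 each). IR29 and FL478 overlapped through FL478 control 3, IR63731 and Pokkali overlapped too, and each array of the first pair lay above each array of the second. IR29 minus IR63731 was 0.79 (interval 0.32 to 1.27), which is 1.73-fold, and IR29 minus Pokkali was 0.71 (interval 0.24 to 1.18). FL478 minus IR63731 was 0.51 and FL478 minus Pokkali 0.43, and these became 0.36 and 0.28 without FL478 control 3. The IR29 value stayed near the same size, at 0.77 against IR63731, without IR29 control 1.

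The other MT-2 probe sets added little level. Os.35005.1.S1_at, at 2.92 to 3.72, and Os.46398.1.S1_at, at 2.76 to 3.58, were below the array median on 23 of 23 arrays, and Os.46398.1.S1_at had a salt difference of -0.05 in the mean of 4 genotypes. Os.35005.1.S1_x_at was also dim, at 3.76 to 5.05, and below the array median on 15 of 23 arrays. Outside FL478 its salt differences were nonetheless close to those of Os.46398.1.S1_s_at, with 0.43 in IR29, 0.52 in IR63731, 0.44 in Pokkali and 0.38 in the mean. In FL478 the signs differed, with 0.15 for Os.35005.1.S1_x_at and -0.04 for Os.46398.1.S1_s_at. Os.35005.1.S1_x_at was the 1 member of 9 for which each of the 12 salt arrays exceeded the mean of the matching controls, as 2.71% of all probe sets did. Over the 23 arrays these 2 probe sets correlated at r = 0.894. Another probe set of the same ID stem, Os.35005.2.S1_at, has no gene listed. It went the other way and fell by 0.21 in the mean under salt (limma adjusted p = 0.0242), and correlated with Os.35005.1.S1_x_at at r = -0.346. Averaging all 4 probe sets gave a mean salt difference of 0.20 for MT-2, since the 2 dimmest barely differed.

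In the mean of 4 genotypes limma with Benjamini-Hochberg adjustment over all rice probe sets passed 7 of the 9 member probe sets as higher under salt, 5 of MT2C and 2 of MT-2, where 4.95% of all probe sets passed in that direction. In the separate genotypes limma passed 0 of 9, where 0.53% of all probe sets passed as higher in FL478, 0.166% in IR29, 0.0297% in IR63731 and 0.161% in Pokkali. At an unadjusted p under 0.05 the members counted 3 in FL478, 6 in IR29, 4 in IR63731 and 2 in Pokkali. The share of all probe sets at that unadjusted threshold is not given here. All salt arrays lay above all control arrays for 5 of 9 members in FL478 (8.75% of all probe sets), 7 in IR29 (10.5%), 4 in IR63731 (6.59%) and 2 in Pokkali (7.78%). Nothing is read from these counts, because the genes were picked on the same groups.

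The count in the mean differed across other settings. No share of all probe sets is given for these settings, so nothing particular to the members is read from the changes. Leaving out a single array lowered it for 19 of the 23 arrays, and brought it to 4 or fewer for 9. It was 1, an MT-2 probe set, without IR29 control 1 and also without all 3 arrays between genotypes. It was 3 without IR29 salt 2 or Pokkali control 3, and 4 without FL478 control 1, FL478 control 2, FL478 salt 1, IR63731 control 1, IR63731 control 3 or Pokkali control 1. It fell to 0 with the 3 prime minus 5 prime value as a covariate, a measure of RNA quality averaged over the array's probe sets for actin, Gapdh, cyclophilin and ubiquitin. That value averaged 0.689 on salt arrays and 0.605 on control arrays. The mean difference with the covariate was 0.32 for MT2C and 0.39 for MT-2, against 0.39 and 0.36 without it. Over the 23 arrays the value correlated with the level of MT2C at r = 0.315 and with MT-2 at r = 0.216, and in the deviations from the group means at 0.263 and -0.128. Its part in the differences was not tested further.

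Between genotypes in control roots, limma passed 0 of the 9 members in each of the 6 pairs. It passed 1.38% of all probe sets for FL478 against IR29, 2.44% for FL478 against IR63731, 4.36% for FL478 against Pokkali, 0.893% for IR29 against IR63731, 4.15% for IR29 against Pokkali and 3.6% for IR63731 against Pokkali. The members without overlap are counted by probe set, and the probe sets of a gene are not independent. MT2C gave 4 of those in FL478 against IR63731 and 4 in IR63731 against Pokkali. Nothing is read from these counts or those of limma, because the genes were picked on the same groups. FL478 lay above IR63731 for 6 of 9 members (18.6% of all probe sets had no overlap either way), IR63731 lay below Pokkali for 5 (18.2%) and IR29 lay above IR63731 for 3 (24.9%). IR29 lay above Pokkali for 3 and below it for 1 (29.7%), FL478 lay below IR29 for 1 (25.3%) and FL478 lay above Pokkali for 1 (21.3%).

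In each pair of genotypes in salt roots most members overlapped, as did most of all probe sets. FL478 lay below IR29 for 2 of 9 (16.1% of all probe sets had no overlap either way) and IR29 lay above IR63731 for 1 (15.4%). None was free of overlap for FL478 against IR63731 (12.6%), FL478 against Pokkali (15.3%), IR29 against Pokkali (18.8%) or IR63731 against Pokkali (15.5%). Limma passed 0 of 9 in each pair, and passed 3.74% of all probe sets for FL478 against IR29, 1.3% for FL478 against IR63731, 3.05% for FL478 against Pokkali, 2.94% for IR29 against IR63731, 6.34% for IR29 against Pokkali and 3.3% for IR63731 against Pokkali. At an unadjusted p under 0.05 the members counted 0 to 2 in each pair of either treatment, except for 4 in IR29 against Pokkali under salt. The share of all probe sets at that threshold is not given. As in control roots, nothing is read from these counts.

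The replicate number, which was not used to pick the genes, could be tested. The number 2 salt array was the highest of its group for all 5 MT2C probe sets in IR29, IR63731 and Pokkali, and for 2 of 5 in FL478. Over all probe sets the number 2 salt array was the highest in 29.4% of cases in FL478, 41.1% in IR29, 37.4% in IR63731 and 33.0% in Pokkali. For MT-2 it was the highest for all 4 probe sets in IR63731 and Pokkali, 2 of 4 in IR29 and 1 of 4 in FL478. What a number stands for is not given in the labels.

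With the 8 groups in the model, MT2C on number 2 arrays was 0.32 above number 1 (SE 0.11, limma adjusted p = 0.135), and number 3 minus number 2 was -0.33 (SE 0.11, limma adjusted p = 0.104). Number 3 minus number 1 was -0.02 (SE 0.11, limma adjusted p = 0.966). For MT-2, number 2 minus 1 was 0.21 (SE 0.12, limma adjusted p = 0.4), number 3 minus 2 was -0.17 (SE 0.12, limma adjusted p = 0.521) and number 3 minus 1 was 0.04 (SE 0.12, limma adjusted p = 0.906). Without the 3 arrays between genotypes, number 3 minus 2 of MT-2 was -0.34 (limma adjusted p = 0.172), and number 3 minus 1 was -0.05 for MT2C and -0.03 for MT-2. None of the 9 members passed limma in these contrasts, where 2.83%, 6.15% and 1.38% of all probe sets passed for 2 minus 1, 3 minus 2 and 3 minus 1. At an unadjusted p under 0.05 all 5 MT2C probe sets and 1 of the 4 MT-2 probe sets counted for 2 minus 1. The counts were the same for 3 minus 2, and 0 for 3 minus 1. No share of all probe sets is given at that threshold, and the 5 MT2C probe sets are not independent measurements.

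Set against the control array of the same number, the salt difference of MT2C was above 0 in 10 of 11 pairs. It averaged 0.21 over the 4 pairs of number 1, 0.61 over the 4 pairs of number 2 and 0.37 over the 3 pairs of number 3. In number 2 it was 0.43 in FL478, 0.74 in IR29, 0.98 in IR63731 and 0.28 in Pokkali. The pair below 0 was Pokkali number 1, at -0.26. The average of number 1 leans on IR29, at 0.63, whose control is IR29 control 1, beside 0.37 in FL478 and 0.11 in IR63731. For MT-2 the averages were 0.37, 0.56 and 0.02 for numbers 1, 2 and 3. The low value of number 3 goes with FL478, at -0.44, whose control is FL478 control 3, beside 0.41 in IR63731 and 0.08 in Pokkali. Without the number 2 salt arrays of IR29, IR63731 and Pokkali, the mean salt difference was 0.23 for MT2C and 0.24 for MT-2. This was a choice made after the data were seen. Under it 3 of 9 members passed limma, and the share of all probe sets that passed is not given.

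**Figure D3:**
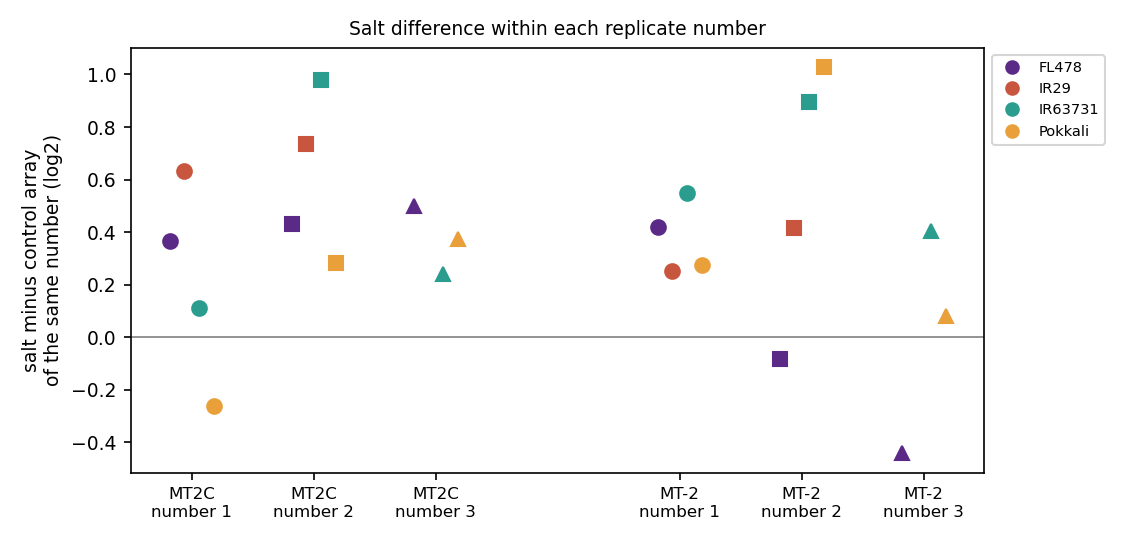
Salt array minus control array of the same genotype and replicate number, on the log2 scale, for MT2C (left) and MT-2 (right). Each point is 1 pair, and IR29 has no pair of number 3. The highest points of each gene are number 2 pairs, IR63731 at 0.98 for MT2C and Pokkali at 1.03 for MT-2, and the lowest is FL478 number 3 at -0.44 for MT-2.

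The other metallothionein genes did not pass in any salt comparison. Of 7 such genes found by name, 5 had a probe set of their own, MT2B, MT1B, MT-1, MT4A and MT4C. Limma passed 0 of 5 in the mean of 4 genotypes, with 0 at an unadjusted p under 0.05, and 0 of 5 in each genotype, with 1 at an unadjusted p under 0.05 in FL478 and 0 in the others. Their median difference in the mean of 4 genotypes was -0.05, beside -0.01 over all probe sets.

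MT2B, the nearest namesake of MT2C, averaged 13.05 under salt and 13.14 in control roots, a difference of -0.08 (SE 0.07, limma adjusted p = 0.533). MT1B had a difference of -0.05 (SE 0.06, limma adjusted p = 0.716), MT-1 of -0.0015 (SE 0.04, limma adjusted p = 0.991) and MT4A of -0.05 (SE 0.04, limma adjusted p = 0.53). MT4C had 0.01 (SE 0.03, limma adjusted p = 0.913). MT4C held the highest value on each of the 23 arrays, and MT4A lay 0.46 to 0.79 below the array maximum, so both sat at the top of the scale, where a change of level may be compressed. Of the 4 MT2B probe sets, 3 had the same sign. Across the alternatives the difference of MT-1 took either sign, from -0.03 to 0.03, and that of MT1B ran from -0.08 to 0.01.

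**Figure D4:**
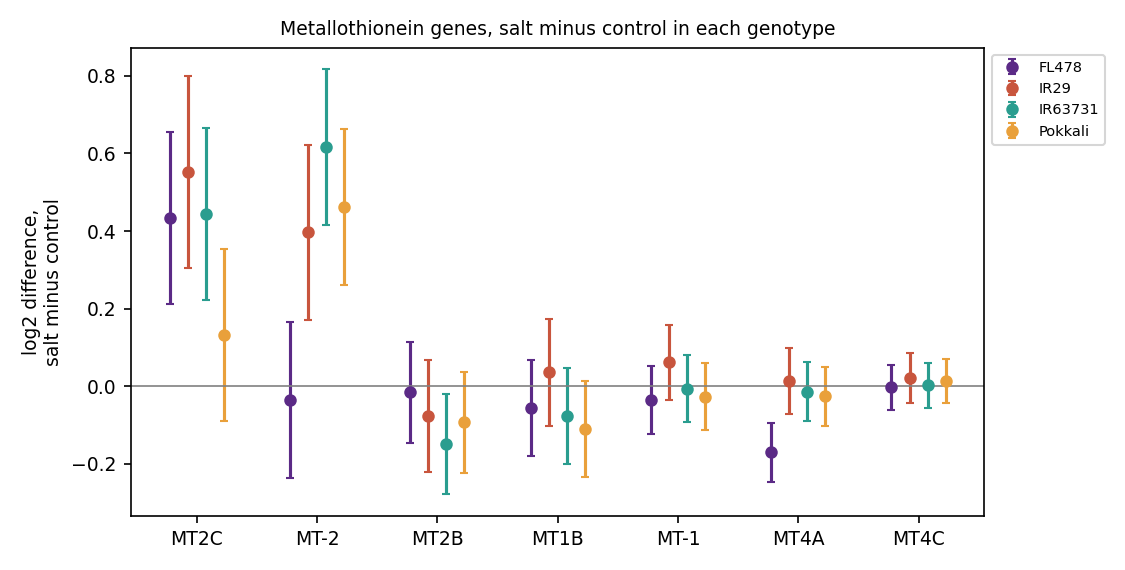
Log2 difference, salt minus control, of the 7 measured metallothionein genes in each genotype, each read from its probe set with the highest mean, with 1 SE. MT2C and MT-2 lie above 0 in most genotypes, and the other 5 genes lie between -0.17 and 0.06.

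Of 7 measured genes of copper handling, limma passed 2 as lower and 0 as higher in the mean of 4 genotypes, while 4.95% of all probe sets passed as higher and 3.36% as lower. The list's median difference was -0.17, beside -0.01 over all probe sets. HMA5, a copper-exporting ATPase that loads the xylem, averaged 9.92 under salt and 10.70 in control roots, and fell by 0.77 (SE 0.07, limma adjusted p = 4.02e-06), lower on 12 of 12 salt arrays. COPT1, a copper importer of the plasma membrane, fell by 0.19 (SE 0.04, limma adjusted p = 0.00599), and its adjusted p was 0.0552 with the 3 prime minus 5 prime covariate. COPT2, a copper importer of the same family named here after its values were seen, had a difference of 0.56 the other way (SE 0.18, limma adjusted p = 0.0637). On 9 of 12 salt arrays it exceeded the matching control mean. COPT2 also differed between replicate numbers, with number 3 minus number 2 at -0.66 (limma adjusted p = 0.0227).

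The genes of the zinc transport list, which took in MTP genes by name whatever metal they carry, went both ways. Of 14 measured, 2 were higher and 4 lower in the mean of 4 genotypes, with a median of -0.09. MTP3, of the cation diffusion facilitator family, averaged 9.07 under salt and 8.67 in control roots, and rose by 0.41 (SE 0.08, limma adjusted p = 0.00238), with 12 of 12 salt arrays over the matching control mean. ZIP2, of the zinc importer family, rose by 0.41 (limma adjusted p = 0.0237), but its adjusted p was 0.0544 without IR29 control 1 and 0.119 without all 3 arrays between genotypes. MTP7 fell by 0.62 (SE 0.11, limma adjusted p = 0.00169). HMA2, a zinc-exporting ATPase, fell by 0.55 (limma adjusted p = 0.0128), with an adjusted p of 0.053 without IR29 control 1. The further genes that passed as lower were ZIP7 and MTP4.

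Among 17 measured genes of reactive oxygen scavenging, 4 were higher and 0 lower in the mean of 4 genotypes, with a median of 0.09. PRXIIC, a peroxiredoxin, averaged 11.66 under salt and 11.22 in control roots, and rose by 0.45 (SE 0.06, limma adjusted p = 0.000101), with 12 of 12 salt arrays over the matching control mean. The catalase gene catA rose by 0.47 (SE 0.14, limma adjusted p = 0.0476). That call was lost when any of 16 arrays was left out. catA also differed between replicate numbers, with number 3 below number 2 by 0.54 (limma adjusted p = 0.0156). The other genes that passed were sodCp, a superoxide dismutase, and PRXIIF, a peroxiredoxin. In the separate genotypes limma passed 1 of the 43 genes of these lists as higher and 3 as lower in FL478, 0 and 1 in IR29, and 0 in IR63731 and Pokkali. The shares of all probe sets that passed as lower were 0.43% in FL478, 0.177% in IR29, 0.042% in IR63731 and 0.18% in Pokkali. At an unadjusted p under 0.05 the list genes counted 15 in FL478, 10 in IR29, 12 in IR63731 and 8 in Pokkali. These counts take both directions together, and no share of all probe sets is given at that threshold.

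The genes whose levels ran most like each metallothionein gene were not the same. Among 2457 genes with a name, Pearson r over the 23 arrays with MT2C was highest for DRB1 at 0.888, SHL2 at 0.861, OsCXXS1 at 0.857, Hd18 at 0.833 and IAA10, a repressor of auxin signalling, at 0.816. In the deviations from the group means these 5 correlated with MT2C at 0.812 to 0.878. This was higher than in the levels for SHL2 and IAA10, and lower for the other genes. With MT-2 it was highest for HOX1, a homeodomain transcription factor, at 0.866, ARF at 0.856, ORR4 at 0.837, EIL1, a transcription factor of ethylene signalling, at 0.833 and OsC3H35 at 0.826. Their correlations in the deviations were lower, at 0.601 to 0.754. The MT2C probe sets and Os.46398.1.S1_s_at of MT-2 correlated with each other at 0.499 to 0.676.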

How the data were processed

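Per the submitters' processing notes the authors used RMA, and the deposited values are log2 intensities with a column for each array. Neither the software and version behind RMA nor the genome build is given in the sources used here, so coordinates and sequences are left out. The 123 AFFX and 64 reporter rows among 57381 were not tested. Names came from the array annotation and the RefSeq gene table.

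The remaining 57194 probe sets went into 1 limma model (version 3.58.1, R 4.3.3) of 8 group means over 23 arrays, two-sided, with Benjamini-Hochberg adjustment and a threshold of 0.05. Replicate numbers were tested with the groups in the model. A gene was read from its probe set with the highest mean. The members and gene lists were chosen with earlier results of these data known. By rule the text names all members, all measured metallothioneins, up to 2 passing genes each way of each other list, and the 5 most similar named genes. Lists covered metallothioneins, copper handling, zinc transport and reactive oxygen scavenging. A list of thiol chelation genes matched no name and was not analysed here.

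Same-numbered salt and control arrays deviated together, with every correlation over the minimum of 0.1, in FL478 (0.421, 0.197 and 0.287) and IR63731 (0.142, 0.296 and 0.252). In IR29 (-0.179 and 0.119) and Pokkali (-0.0660, -0.0156 and 0.316) not every pair passed this minimum. Alternatives were this number as a block, array weights, quantile normalization again, a filter at the median, eBayes with trend and robust, the 3 prime minus 5 prime covariate, only the arrays compared, the mean of all probe sets, and leaving out arrays. The code was tested on simulated data. The number of arrays limits the precision. Plots were made with matplotlib 3.10.9 in Python 3.11.15.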

Additional observations from a re-analysis of the deposited data

Results flagged for a closer look

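MT4A, a metallothionein gene near the top of the scale, was singled out because its salt arrays lay on opposite sides of the control mean in a pair of genotypes. All 3 FL478 salt arrays lay below the FL478 control mean and all 3 IR29 salt arrays lay above the IR29 control mean. The salt effect in FL478 minus that in IR29 was -0.18, with -0.17 in FL478 (SE 0.08) and 0.01 in IR29 (SE 0.08), the second well within its error. The lowest limma adjusted p among the 6 differences of the salt effect of MT4A between genotypes was 0.976, so the pair did not pass a test of the difference.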

How the results depend on the processing

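The 84 results gave 1680 values under other settings, of which 1547 kept their direction and side of the threshold, or, for values with no test and counts, moved little. The named genes ZIP2, HMA2, catA and COPT1 account for 28 lost calls. The replicate block, which pairs arrays by number, gave 0.40 for MT2C and 0.37 for MT-2 in the mean of 4 genotypes and left 5 MT2C and 2 MT-2 probe sets passing. It moved 1 copper gene to higher in the mean, made 2 list genes higher in FL478 and 1 in Pokkali, and changed no other call beyond 1.5 times.

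The number of members passing in the mean was 0 with the 3 prime minus 5 prime covariate, 1 without the 3 arrays between genotypes, 3 without the number 2 salt arrays of IR29, IR63731 and Pokkali, and 1 to 7 when 1 array was left out. Without those number 2 arrays, the salt difference was 0.13 for MT2C in IR63731 and 0.17 for MT-2 in Pokkali. Shares of all probe sets that passed are not given for the replicate block or for these other settings. Taking the mean of all 4 probe sets of MT-2, of which 2 are dim throughout, gave 0.31 for salt in IR63731. In control roots it gave 0.21 for FL478 minus IR63731, 0.15 for FL478 minus Pokkali, 0.43 for IR29 minus IR63731 and 0.38 for IR29 minus Pokkali. In salt roots it gave -0.36 for FL478 minus IR29 and 0.36 for IR29 minus Pokkali. For the difference of salt effects it gave -0.14, -0.24 and -0.15 for FL478 minus IR29, IR63731 and Pokkali. The cause of the other changes was not tested.

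With 1 array left out, MT2C ranged from 0.13 to 0.62 for salt in IR63731, from 0.0093 to 0.50 for FL478 minus IR63731, from 0.0079 to 0.54 for IR29 minus IR63731 and from -0.21 to 0.28 for IR63731 minus Pokkali in salt roots. Its differences of salt effects ranged from -0.19 to 0.30 for FL478 minus IR63731, from -0.13 to 0.42 for IR29 minus IR63731 and from -0.0033 to 0.49 for IR63731 minus Pokkali. The extreme without IR63731 salt 2 set each of these. MT-2 ranged from 0.17 to 0.62 for salt in Pokkali, from -0.23 to 0.23 for FL478 minus Pokkali, from 0.49 to 0.94 for IR29 minus Pokkali and from -0.11 to 0.37 for IR63731 minus Pokkali in salt roots. Its differences of salt effects ranged from -0.66 to -0.20 for FL478 minus Pokkali, from -0.22 to 0.23 for IR29 minus Pokkali and from -0.032 to 0.45 for IR63731 minus Pokkali, with Pokkali salt 2 the array that moved them most. Number 3 minus 1 ranged from -0.073 to 0.044 for MT2C and from -0.045 to 0.11 for MT-2, and was -0.030 for MT-2 without the 3 arrays between genotypes.

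In the mean, copper genes higher counted 1 with the block, array weights or the filter at the median, and copper genes lower 1 with the covariate. Zinc genes higher counted 1, and zinc genes lower 2, with the covariate or without the 3 arrays. Zinc genes higher also counted 1 without the number 2 salt arrays. Scavenging genes higher counted 2 with the covariate, and lower 1 with weights, filter or trend. All lists together gave 3 higher and 3 lower with the covariate. In FL478 list genes higher counted 0 with weights, with the covariate or without the 3 arrays, and lower 1 without the 3 arrays. In IR29 list genes lower counted 0 with the covariate, without the 3 arrays or without the number 2 salt arrays. With 1 array left out the counts ran from 0 to 1 for copper higher, 1 to 2 for zinc higher, 2 to 4 for zinc lower, 0 to 1 for scavenging lower, 0 to 1 higher and 1 to 3 lower in FL478, and 0 to 1 lower in IR29. MT1B turned to 0.0058 with the covariate and 0.0021 without the number 2 salt arrays. MT-1 turned to 0.0062 with weights, 0.023 after quantile normalization, 0.027 with the covariate, 0.026 without the 3 arrays and 0.014 without the number 2 salt arrays, and ranged from -0.031 to 0.028 with 1 array left out.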
